A study of Mus with 21 samples.

Results

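The genes described here are 8 chemokines that attract monocytes and T cells (Ccl2, Ccl7, Ccl12, Ccl8, Ccl3, Ccl4, Cxcl9 and Cxcl10) and 2 chemokine receptors (Ccr1 and Ccr2). They were chosen by gene symbol and are 10 of the 18806 genes in the deposited count tables. All 10 passed the filter on low counts in every comparison. They were followed in full-thickness skin wounds of WT mice of the C57BL/6 strain on Day 4 after wounding, in 21 RNA-seq libraries with 3 in each of 7 groups. By the study's methods the mice were female and 8 weeks old, and the 8 mm wounds were either left without a hydrogel (control) or covered with a gelatin methacryloyl (GelMA) hydrogel. The hydrogels had a pH of 6.4, 7.4 or 8.4 and carried acidic (aFGF) or basic (bFGF) fibroblast growth factor, and the groups are named here by both, for example 6.4/aFGF. Every hydrogel group had both the gel and a growth factor, so the effects of gel and growth factor against control cannot be told apart.

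Chemokines are small secreted proteins that bind receptors on leukocytes and guide them into inflamed tissue. Ccl2, Ccl7 and Ccl12 are ligands of Ccr2, the receptor by which inflammatory monocytes leave the bone marrow, and Ccl8 belongs to the same gene cluster of monocyte chemoattractants. Ccl3 and Ccl4 are macrophage inflammatory proteins, and Ccr1 is a receptor of Ccl3. Cxcl9 and Cxcl10 are induced by interferons and attract activated T cells and NK cells that carry Cxcr3. In healing skin these signals accompany the passage from early neutrophil-rich inflammation to a macrophage-rich wound.

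The libraries held between 34362558 and 37817833 counts, with a median of 36771838, so that 3 counts corresponded to 0.0793 to 0.0873 CPM (counts scaled to library size) and counting error was small beside the spread between replicates. All 8 keratinocyte markers and all 8 fibroblast markers had a median over 1 CPM. Several libraries stood apart. In 7.4/aFGF replicate 1 the 13 T and NK cell markers in the tables summed to 289.7 CPM, against at most 136 CPM in the other 20 libraries. In control replicate 2 the 8 neutrophil markers summed to 8477 CPM, against 1253 and 742 CPM in the other control libraries. Markers of cartilage and bone reached 213 CPM in 7.4/aFGF replicate 3, and markers of ovary and oviduct reached 457 CPM in 8.4/bFGF replicate 2, against at most 19.0 and 25.2 CPM in the other libraries. Inha, the inhibin alpha subunit of the ovary list, was the only gene of all the lists that was called, over the 7 groups (edgeR adjusted p = 0.0477). The tissue was sequenced whole, so fewer cells of a type and less RNA per cell cannot be told apart. By the study's methods whole mice, each wounded on both sides of the back, were assigned to groups, so different groups did not share animals. The labels name the replicates as biological, but they do not say whether libraries of 1 group came from the same animal. The p-values therefore measure the spread between these libraries.

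Per length of transcript, Ccl8 was the dominant ligand in all 21 libraries. Its median level was 1305 FPKM, in the deposited unit scaled to transcript length and library depth. It made up 29.7% to 85.0% of the summed FPKM of the 8 ligands, with a median of 68.6%. Ccl7 and Ccl2 followed with median shares of 7.52% and 6.30%, and then Ccl3 with 4.07% and Ccl4 with 3.99%. Ccl12 had a median share of 2.38%, Cxcl10 of 0.893% and Cxcl9 of 0.261%. The share of Ccl8 was lowest in 8.4/aFGF replicate 1, where Ccl2 took 25.4% and Ccl7 21.0%, and the second ligand by level was Ccl2, Ccl7, Ccl3 or Ccl4 depending on the library. On the same scale the receptor Ccr1 had a median of 81.2 FPKM and Ccr2 of 33.9 FPKM.

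**Figure D1:**
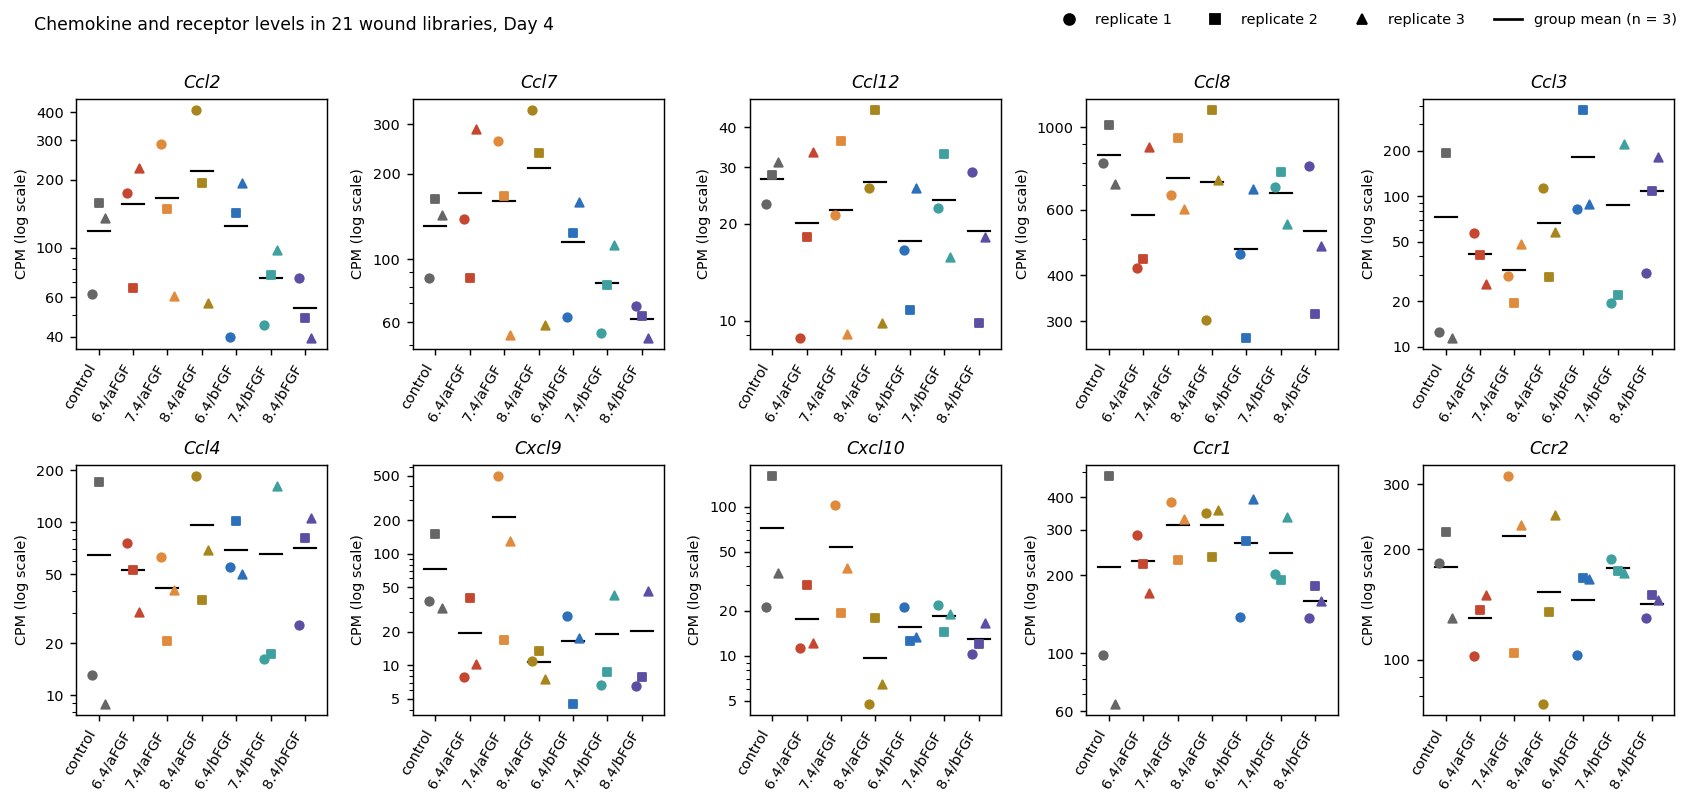
Level of each gene in the 21 libraries, in CPM on a log axis that differs between panels. Symbols mark the replicates, colors the groups, and the black lines the group means of 3 libraries. The 2 highest Cxcl9 values are 493 CPM in 7.4/aFGF replicate 1 and 149 CPM in control replicate 2, and most groups of most genes overlap.

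The 10 genes varied widely between libraries, and for all of them but Cxcl10 most of the variance lay within groups. The highest library exceeded the lowest by 109-fold for Cxcl9, 33.5-fold for Cxcl10, 32.6-fold for Ccl3 and 20.6-fold for Ccl4, while Ccl8 and Ccr2 spanned 4.09-fold and 4.15-fold. The SD of log2 CPM over the 21 libraries placed Cxcl9 at the 99.1 percentile of the 15811 genes tested, Ccl3 at 97.6, Ccl4 at 96.0 and Cxcl10 at 94.5, and Ccr2 lowest at 67.2. A single group could hold most of this range, since Cxcl9 differed 29.5-fold between replicates of 7.4/aFGF, Ccl4 19.2-fold between control replicates and Ccl3 17.0-fold between them. The 7 groups accounted for 57.9% of the variance of Cxcl10 and 48.7% of that of Cxcl9. For the other 8 genes this share lay between 12.3% and 32.9%, and the median over all genes was 39.1%. A random grouping of the 21 libraries into 7 groups would give a share of 30% on average, near the median of 30.4% of the 10 genes.

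**Figure D2:**
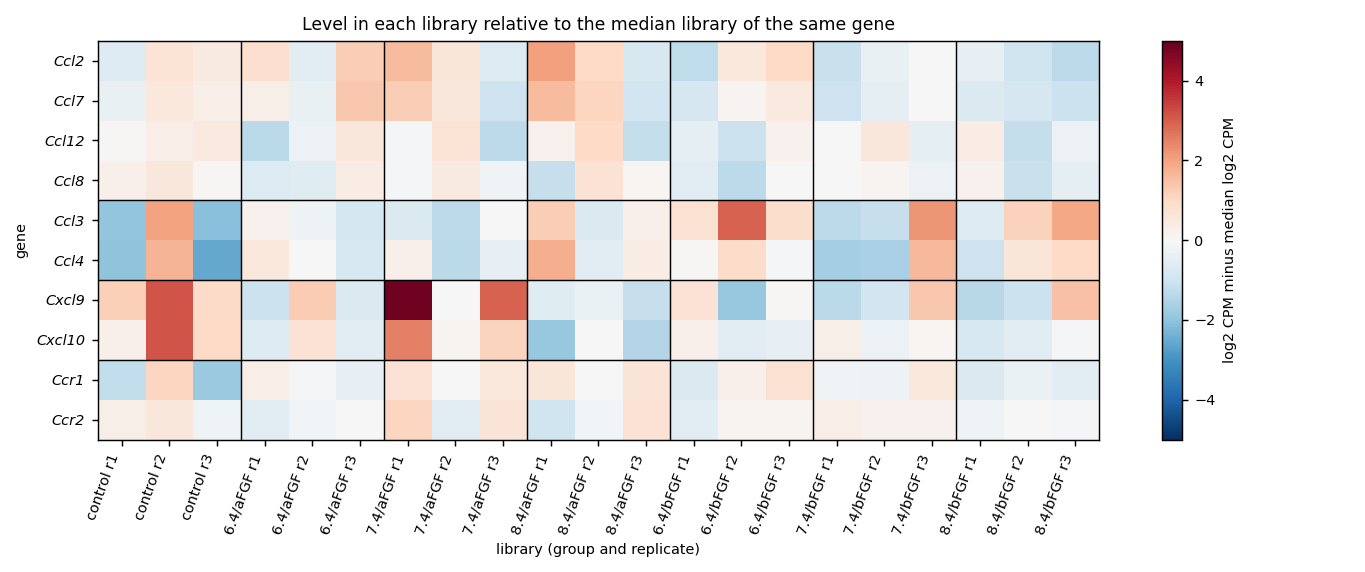
Level of each gene in each library relative to the median library of that gene, as a difference in log2 CPM. Rows are ordered by role (monocyte chemoattractants, macrophage inflammatory proteins, interferon-induced chemokines, receptors) and columns by group. Some neighboring rows share high libraries, such as 8.4/aFGF replicate 1 for Ccl2 and Ccl7, while Ccr1 and Ccr2 are highest in different libraries. Replicates of a group often have opposite colors.

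None of the 10 genes passed the test in any of the 10 comparisons. The test was edgeR's quasi-likelihood test with Benjamini-Hochberg adjustment over all genes, at an adjusted p under 0.05 and, except in the test over the 7 groups, an absolute log2 fold change over 0.58. Few other genes passed it either. The percentage of all genes called was 0.114 in the test for any difference among the 7 groups, 0.00632 for hydrogels against control and 0.00665 for aFGF against bFGF at pH 8.4. It was 0 for the other 7 comparisons. Cxcl10 and Cxcl9 had the smallest adjusted p among the 10 genes over the 7 groups, with 0.112 and 0.125 (edgeR), and the other 8 lay between 0.356 and 0.962. Both also had an unadjusted p under 0.05 (edgeR), as had 19.3% of all genes. This test therefore separated no group means, neighbors in their order included, for any of the 10. With DESeq2, which called 10.8% of all genes over the 7 groups, Cxcl10 (adjusted p = 0.000311) and Cxcl9 (adjusted p = 0.00230) passed.

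Ccl2, the main monocyte chemoattractant, had its highest levels in aFGF hydrogels and its lowest in bFGF hydrogels. Control wounds held 62.1, 158 and 135 CPM of Ccl2. The 3 aFGF groups held 175, 66.0 and 226 CPM at pH 6.4, 290.4, 149 and 60.5 CPM at pH 7.4 and 409.6, 193 and 56.8 CPM at pH 8.4. The 3 bFGF groups held 40.1, 142 and 194 CPM at pH 6.4, 45.0, 75.8 and 97.7 CPM at pH 7.4 and 73.1, 48.7 and 39.7 CPM at pH 8.4. Each aFGF group thus had at least 1 library as low as the bFGF libraries, and all groups overlapped with control. The group means ran from 53.8 ± 17.3 CPM (SD, n = 3) in 8.4/bFGF to 219.9 ± 178 CPM (SD, n = 3) in 8.4/aFGF.

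Ccl7, which also acts on Ccr2, followed Ccl2 closely. Its group means ran from 61.4 ± 7.85 CPM (SD, n = 3) in 8.4/bFGF to 210.5 ± 141 CPM (SD, n = 3) in 8.4/aFGF. The 3 libraries of 8.4/aFGF held 336, 237 and 58.4 CPM of Ccl7 and those of 8.4/bFGF 68.4, 62.9 and 52.9 CPM. Replicate 3 of 8.4/aFGF therefore lay among the 8.4/bFGF libraries. Between growth factors at pH 8.4, aFGF against bFGF gave a log2 fold change of 2.06 (SE 0.66) for Ccl2 and 1.80 (SE 0.57) for Ccl7, with edgeR adjusted p of 0.168 and 0.165. Without 8.4/aFGF replicate 1 the values were 1.21 and 1.26. Without 8.4/aFGF replicate 3 that of Ccl7 was 2.25 and passed the test (edgeR adjusted p = 0.0287), as did 1.12% of all genes. DESeq2 called both, with adjusted p of 0.00852 and 0.0103, and it called 5.24% of all genes there. Monocyte and macrophage markers also had higher sums with aFGF at pH 8.4. Their 14 genes summed to 11925, 11069 and 8094 CPM in 8.4/aFGF and 7954, 5496 and 6656 CPM in 8.4/bFGF. All 14 had a positive fitted difference (median 0.43), though that of Ly6c2, a marker of inflammatory monocytes, was only 0.0016 (SE 0.24). None of the 14 markers was called, and 4 had an unadjusted p under 0.05 (edgeR), which 21.1% of all genes had. Their part in the result was not tested.

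Between pH 6.4 and pH 7.4 with aFGF (6.4/aFGF against 7.4/aFGF) neither gene differed beyond the replicate spread. Fitted values on the log2 scale were -0.091 (SE 0.64) for Ccl2 and 0.091 (SE 0.64) for Ccl7, with edgeR adjusted p of 0.991 and 0.991. The sign of both turned when single libraries were left out, with ranges of -0.49 to 0.58 and -0.52 to 0.64. Hydrogels against control gave 7.1e-05 (SE 0.58) for Ccl2 and -0.096 (SE 0.46) for Ccl7, and the exact permutation p of the difference in mean log2 CPM was 0.890 and 0.728 (two-sided, 1330 choices of 3 of 21 libraries).

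Ccl12, a Ccr2 ligand of the mouse, was expressed at 8.85 to 45.2 CPM. Control wounds held 23.1, 28.5 and 31.2 CPM, a narrow range inside that of the 18 hydrogel libraries. Its log2 fold change was -0.13 (SE 0.61, edgeR adjusted p = 0.984) for 6.4/aFGF against 7.4/aFGF, with a range of -0.71 to 0.42 when single libraries were left out. For hydrogels against control it was -0.38 (SE 0.43), and the difference in mean log2 CPM was -0.51 (exact permutation p = 0.273). Ccl12 had the smallest share of variance between groups of the 10 genes, 12.3%.

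Ccl8, the most abundant ligand, held 802, 1016 and 702 CPM in control wounds and 272 to 1112 CPM with a median of 629 in the 18 hydrogel libraries. The control mean of 839.9 ± 161 CPM (SD, n = 3) was the highest of the 7 groups, and the lowest was 469 ± 204 CPM (SD, n = 3) in 6.4/bFGF. The 6.4/bFGF libraries, at 454, 272 and 679.6 CPM, lay below all 3 control libraries, where 15.9% of all genes had groups that did not overlap, and the other 5 hydrogel groups overlapped with control. For hydrogels against control the log2 fold change of Ccl8 was -0.48 (SE 0.32), and the difference in mean log2 CPM was -0.54 (exact permutation p = 0.129). The log2 fold change was -0.32 (SE 0.34, edgeR adjusted p = 0.889) for 6.4/aFGF against 7.4/aFGF.

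Ccl3 and Ccl4, attractants of monocytes, macrophages and T cells, were set by single libraries in control. Ccl3 stood at 12.5, 195 and 11.5 CPM and Ccl4 at 13.1, 172 and 8.93 CPM in the 3 control libraries. In the 18 hydrogel libraries Ccl3 ranged from 19.4 to 374 CPM with a median of 52.5, and Ccl4 from 16.2 to 184 CPM with a median of 53.9. Control replicates 1 and 3 were below all 18 hydrogel libraries for both genes, and control replicate 2 was above 16 of the 18 for Ccl3 and above 17 of the 18 for Ccl4. Hydrogels against control gave a fitted log2 fold change of 0.0096 (SE 0.82) for Ccl3 and -0.0044 (SE 0.78) for Ccl4. The difference in mean log2 CPM was larger, 0.92 and 0.94, with exact permutation p of 0.318 and 0.244. Without control replicate 2 the fitted log2 fold changes became 2.60 and 2.53, and neither gene passed the test, where 1189 of the 16069 genes tested did. Neutrophil markers moved with them, at 1253, 8477 and 742 CPM in the 3 control libraries and 3131 to 12607 CPM in the hydrogel libraries. All 8 neutrophil markers had a positive fitted difference for hydrogels against control, and none was called. Their part in the result was not tested.

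Between growth factors at pH 6.4, Ccl3 was higher with bFGF in every library, and Ccl4 was not. Ccl3 held 56.6, 40.4 and 26.2 CPM in 6.4/aFGF and 82.5, 374 and 88.7 CPM in 6.4/bFGF. Ccl4 held 76.2, 53.0 and 30.2 CPM in 6.4/aFGF and 54.9, 101 and 50.02 CPM in 6.4/bFGF. Only Ccl3 of the 10 genes had groups that did not overlap here and an unadjusted p under 0.05, as had 15.0% and 8.16% of all genes. Its log2 fold change for aFGF against bFGF was -2.13 (SE 0.65, edgeR adjusted p = 0.590) and -1.07 without 6.4/bFGF replicate 2, the highest Ccl3 library of all. DESeq2 called Ccl3 at an adjusted p of 0.0240, beside 0.666% of all genes. For 6.4/aFGF against 7.4/aFGF the fitted values were 0.35 (SE 0.39) for Ccl3 and 0.36 (SE 0.47) for Ccl4, with edgeR adjusted p of 0.897 and 0.919. The 7.4/bFGF libraries held 16.2, 17.2 and 162 CPM of Ccl4, with replicate 3 far above the other two. For 6.4/bFGF against 7.4/bFGF the log2 fold change of Ccl4 was 0.08 (SE 0.93, edgeR adjusted p = 0.986), and Ccl4 passed, as higher in 6.4/bFGF, only without that replicate 3, as did 1.83% of all genes.

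Cxcl9, an interferon-induced attractant of T cells, had the widest range of the 10 genes. It stood at 38.1, 149 and 32.5 CPM in control, 7.86, 40.3 and 10.2 CPM in 6.4/aFGF, 493, 16.8 and 129 CPM in 7.4/aFGF and 11.0, 13.4 and 7.59 CPM in 8.4/aFGF. The bFGF groups held 27.4, 4.53 and 17.4 CPM at pH 6.4, 6.64, 8.69 and 42.3 CPM at pH 7.4 and 6.49, 7.93 and 46.5 CPM at pH 8.4. Replicates 1 and 3 of 7.4/aFGF and replicate 2 of control were the 3 highest libraries, while replicate 2 of 7.4/aFGF lay within the range of the other hydrogel groups.

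Cxcl10, induced by the same signals, had its highest levels in the same libraries. It stood at 21.1, 159.8 and 35.7 CPM in control, 11.3, 29.6 and 12.2 CPM in 6.4/aFGF, 102, 19.5 and 39.1 CPM in 7.4/aFGF and 4.77, 17.8 and 6.48 CPM in 8.4/aFGF. The 9 bFGF libraries lay between 10.3 and 21.9 CPM. The 2 highest libraries were control replicate 2 and 7.4/aFGF replicate 1, followed by 7.4/aFGF replicate 3 and control replicate 3.

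At pH 6.4 with aFGF the mean of both genes was below that at pH 7.4, but not beyond the spread of 7.4/aFGF. Fitted log2 fold changes were -3.45 (SE 1.24) for Cxcl9 and -1.60 (SE 0.66) for Cxcl10, with an edgeR adjusted p of 0.832 for both. They were the 2 of the 10 genes with an unadjusted p under 0.05 (edgeR, 0.0281 and 0.0486), which 4.99% of all genes had. Their groups overlapped, as did those of all 10 genes, while 11.0% of all genes had groups that did not. Without 7.4/aFGF replicate 1 the values were -1.89 and -0.72. The same pH difference with bFGF was -0.22 (SE 0.89) for Cxcl9 and -0.22 (SE 0.26) for Cxcl10. The test of the difference between the growth factors (interaction) gave -3.25 (SE 1.63, edgeR adjusted p = 0.828) for Cxcl9 and -1.38 (SE 0.78, edgeR adjusted p = 0.831) for Cxcl10. None of the 10 genes had an unadjusted p under 0.05 in that test, where 6.09% of all genes had.

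At pH 8.4 with aFGF every library was below every 7.4/aFGF library for Cxcl9 and Cxcl10. The log2 fold change against 7.4/aFGF was -4.32 (SE 1.13) for Cxcl9 and -2.47 (SE 0.74) for Cxcl10, with edgeR adjusted p of 1.00 for both and unadjusted p of 0.00694 and 0.0138. Among all genes, 8.30% had groups that did not overlap and 3.01% an unadjusted p under 0.05 in this comparison. Without 7.4/aFGF replicate 1 the values were -2.77 and -1.59. At pH 7.4, aFGF against bFGF gave 3.48 (SE 1.33) for Cxcl9 and 1.55 (SE 0.59) for Cxcl10, with an edgeR adjusted p of 0.372 for both. They were the 2 of the 10 genes with an unadjusted p under 0.05, which 13.0% of all genes had. The groups overlapped for these and the other 8 genes, where 20.8% of all genes had groups that did not, and without 7.4/aFGF replicate 1 the values were 1.91 and 0.66.

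Against control, Cxcl10 came nearest to the threshold of the 10 genes. The log2 fold change of hydrogels against control was -2.0 (SE 0.45, edgeR adjusted p = 0.0963). The difference in mean log2 CPM was -1.58, and its exact permutation p, the smallest of the 10 computed, was 0.0248, where the design allows no p below 0.000752. Cxcl9 gave a log2 fold change of -1.51 (SE 0.73, edgeR adjusted p = 0.309) and a difference in mean log2 CPM of -1.64 (exact permutation p = 0.126). Cxcl10 was the only one of the 10 with an unadjusted p under 0.05, as had 16.7% of all genes, and none of the 10 had groups that did not overlap, as had 0.582%. Without control replicate 2 the fitted log2 fold changes were -0.67 for Cxcl10 and -0.47 for Cxcl9. DESeq2 called Cxcl10 at an adjusted p of 0.0106, together with 0.914% of all genes.

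Ccr1, a receptor of Ccl3 and Ccl7 on neutrophils and monocytes, stood at 99.0, 481 and 64.0 CPM in control and at 137 to 393 CPM with a median of 233 in the hydrogel libraries. Control replicates 1 and 3 were below all 18 hydrogel libraries and control replicate 2 above all 18. Hydrogels against control gave a fitted log2 fold change of 0.21 (SE 0.42, edgeR adjusted p = 0.835). The difference in mean log2 CPM was 0.73 (exact permutation p = 0.106). Without control replicate 2 the fitted log2 fold change of Ccr1 was 1.59 and passed the test (edgeR adjusted p = 0.0157), as did those 1189 genes.

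At pH 8.4, Ccr1 held 348, 236 and 355 CPM with aFGF and 137, 182 and 159 CPM with bFGF. Every aFGF library was above every bFGF library, as for 13.7% of all genes. Ccr1 was the only one of the 10 with groups that did not overlap in either direction, which 27.5% of all genes had. The log2 fold change was 0.99 (SE 0.19, edgeR adjusted p = 0.102), and DESeq2 called it at an adjusted p of 0.000432. Ccr1, Ccl2 and Ccl7 were the 3 of the 10 genes with an unadjusted p under 0.05, which 21.1% of all genes had here. The neutrophil markers summed to 9681, 4566 and 11129 CPM in 8.4/aFGF and 3594, 9294 and 5259 CPM in 8.4/bFGF, and their part in the result was not tested. For 6.4/aFGF against 7.4/aFGF, Ccr1 gave -0.46 (SE 0.25, edgeR adjusted p = 0.832).

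Ccr2, the receptor of inflammatory monocytes, had the smallest SD of log2 CPM of the 10 genes. It held 183, 223 and 129.6 CPM in control and 76.0 to 316 CPM with a median of 149.9 in the hydrogel libraries. Between 6.4/aFGF and 7.4/aFGF the log2 fold change was -0.74 (SE 0.39, edgeR adjusted p = 0.832), and for hydrogels against control -0.18 (SE 0.28). The difference in mean log2 CPM between hydrogels and control was -0.20 (exact permutation p = 0.535). With bFGF the 3 libraries of pH 7.4, at 189, 174 and 172 CPM, were above the 3 of pH 8.4, at 130.3, 150.0 and 145 CPM, and above the 3 of pH 6.4, at 103, 167 and 166 CPM. The log2 fold change of 8.4/bFGF against 7.4/bFGF was -0.32 (SE 0.093, edgeR adjusted p = 0.861), the only unadjusted p under 0.05 among the 10 genes in this comparison, where 5.72% of all genes had one. Ccr1 also had groups that did not overlap there, and 11.7% of all genes had such groups. For 6.4/bFGF against 7.4/bFGF the percentage of such genes was 15.2, and none of the 10 had an unadjusted p under 0.05, where 8.89% of all genes had.

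**Figure D3:**
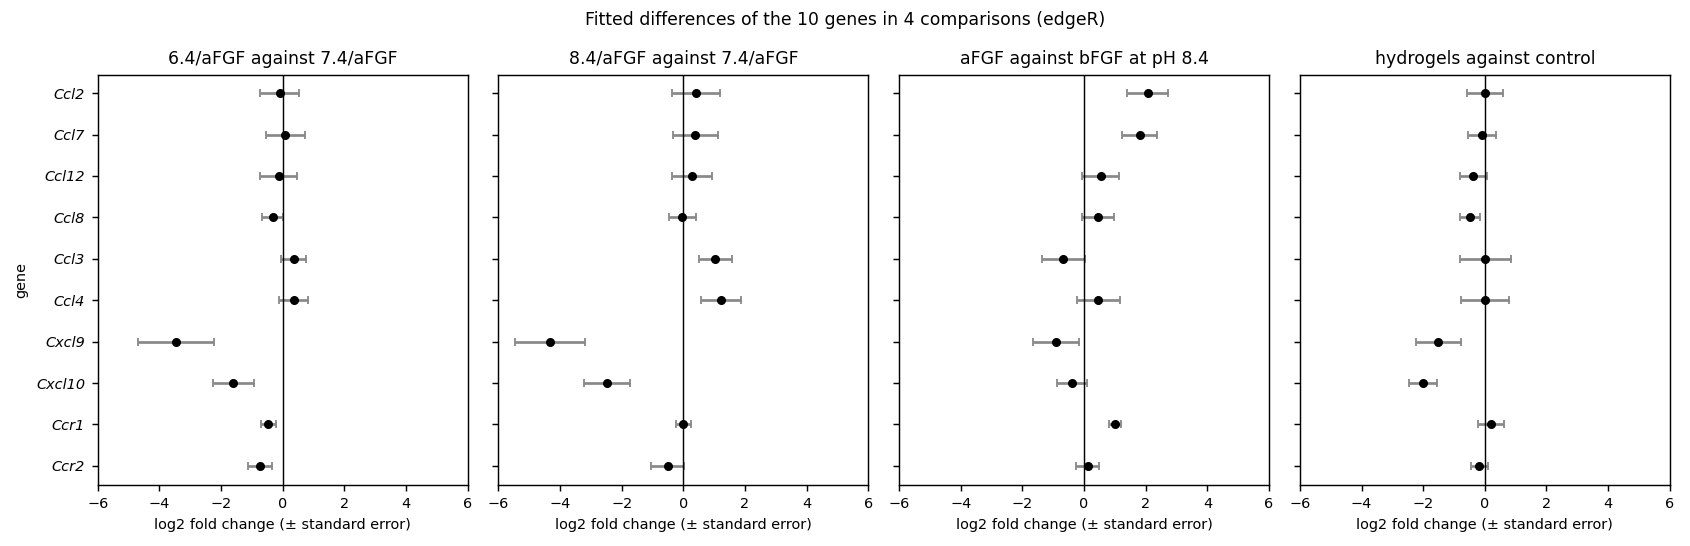
Fitted log2 fold change (points) with its standard error (bars) for the 10 genes in 4 comparisons, from edgeR. Cxcl9 and Cxcl10 lie farthest below 0 against 7.4/aFGF, at -4.32 and -2.47 for pH 8.4, and Ccl2, Ccl7 and Ccr1 farthest above 0 at pH 8.4 for aFGF against bFGF, and none passed the adjusted threshold.

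In sum over the 10 genes, the fitted differences had no common sign. For 6.4/aFGF against 7.4/aFGF, 3 were positive and 7 negative, with a median log2 fold change of -0.23 beside 0.015 over all genes, and the median ran from -0.62 (without 6.4/aFGF replicate 3) to -0.13 (without 6.4/aFGF replicate 2) when single libraries were left out. For hydrogels against control 3 were positive and 7 negative (median -0.14 beside -0.022). Here single control libraries turned the balance. Without control replicate 2, 6 were positive and 4 negative (median 0.044), and without control replicate 1 all 10 were negative (median -0.50). Without control replicate 3, 1 was positive and 9 negative (median -0.43). With the macrophage marker level as a covariate, 3 were positive and 7 negative (median -0.62 beside -0.015). For aFGF against bFGF at pH 8.4, 7 were positive and 3 negative (median 0.46 beside -0.012). Without 8.4/aFGF replicate 2 there were 5 of each sign (median 0.074), as there were when 8.4/bFGF replicate 2 was left out too (median -0.026).

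Genes of the same pathway were read from lists. For 6.4/aFGF against 7.4/aFGF none of them was called. All 13 tested genes of the interferon gamma list were lower in 6.4/aFGF, 8 of them at an unadjusted p under 0.05, with a median log2 fold change of -1.23. All 12 genes of the type I interferon list were lower, 5 of them at that level, where 2.86% of all genes were. Markers of lymphocytes moved with these lists, since all 13 T and NK cell markers (median -1.69) and all 4 tested B cell markers had negative fitted differences, none of them called. Of the 14 monocyte and macrophage markers 2 were higher and 12 lower (median -0.23), and none was called. The T and NK cell markers summed to 34.4, 62.3 and 62.7 CPM in 6.4/aFGF and 289.7, 65.5 and 56.4 CPM in 7.4/aFGF, where replicate 1 stood apart. What part these cell type markers had in the result was not tested. Of the 16 other chemokines 10 were higher and 6 lower, and of the 17 other chemokine receptors 4 were higher and 13 lower. Irf1, a transcription factor induced by interferons, gave -1.49 (SE 0.57). Ccl5, a chemokine of activated T cells, gave -2.71 (SE 0.94), and Cxcr3, the receptor of Cxcl9 and Cxcl10, -1.37 (SE 0.79). Tnf, an inducer of Ccl2 and Ccl3, gave -0.23 (SE 0.30). The edgeR adjusted p of these 4 genes lay between 0.832 and 0.916. In 7.4/aFGF, Ccl5 held 142, 9.35 and 34.2 CPM and Cxcr3 21.0, 4.25 and 2.75 CPM, so that replicate 1 was the highest for both, as it was for Cxcl9. The lower level was not particular to pH 6.4. For 8.4/aFGF against 7.4/aFGF, 12 of 13 interferon gamma genes (median -1.09) and all 13 T and NK cell markers (median -1.90) were lower. At pH 7.4, 13 of 14 interferon gamma genes were higher with aFGF than with bFGF (median 0.914). For 6.4/bFGF against 7.4/bFGF, 9 of 12 were lower (median -0.16), and none was called in these comparisons.

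Ifng, the interferon made by T and NK cells, was near the limit of detection in most libraries. It reached 3.05 CPM in 7.4/aFGF replicate 1, 0.852 CPM in 7.4/aFGF replicate 3 and 4.52 CPM in control replicate 2. In the other 18 libraries it lay between 0 and 0.332 CPM. The 3 libraries with the highest Ifng were also the 3 with the highest Cxcl9. Ifng did not pass the filter on low counts for 6.4/aFGF against 7.4/aFGF, and for hydrogels against control its edgeR adjusted p was 0.103.

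For hydrogels against control, 12 of the 16 other chemokines and 14 of the 17 other receptors were lower, as were 11 of 14 genes of the interferon gamma list and all 12 of the type I interferon list. Unadjusted p under 0.05 and a lower level were found for 6, 3, 6 and 6 of them, where 10.4% of all genes had both, and none was called. Of the 15 inducers and targets of NF-kappa B, 9 were higher and 6 lower, none at that level. Cell type markers moved too, and none was called. All 8 dendritic cell markers were lower, 5 of them at that level (median -0.58), with sums of 323, 286 and 328 CPM in control and 80.8 to 332 CPM in the hydrogel libraries. Of the 13 T and NK cell markers 12 were lower (median -0.53), while all 8 neutrophil markers were higher, as given above. The part of these markers in the result was not tested. Of the 14 monocyte and macrophage markers 7 were higher and 7 lower (median 0.018). Adgre1, the macrophage marker F4/80, gave -0.23 (SE 0.23), Ly6c2, a marker of inflammatory monocytes, -0.45 (SE 0.43), and Cd3e, a subunit of the T cell receptor complex, -0.49 (SE 0.65), with edgeR adjusted p of 0.631, 0.611 and 0.731. Cxcl11 was not analysed here.

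Pairs of neighboring chemokine genes varied together across the 21 libraries. Pearson's r of log2 CPM was 0.965 for Ccl2 and Ccl7 (Spearman's rho 0.945), which are adjacent on chromosome 11 in RefSeq. It was 0.897 for Ccl3 and Ccl4 (rho 0.922), which are adjacent on chromosome 11, and 0.826 for Cxcl9 and Cxcl10 (rho 0.731) on chromosome 5. The adjusted permutation p over all 45 pairs was 0.00015 for each of these 3, from the smallest p that 100000 permutations can give, 1e-05; that of rho was 0.000225, 0.000225 and 0.00292. Without the 2 libraries farthest from the median r was 0.949, 0.914 and 0.681. Within groups, over deviations from the group means, it was 0.952, 0.957 and 0.721. Ccl12 and Ccl8, also adjacent on chromosome 11, had an r of 0.652 (rho 0.729, adjusted permutation p of 0.0128 and 0.00292). Without the 2 farthest libraries this r was 0.691.

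All other pairs except Ccl4 and Ccr1 had an r closer to 0. Ccl2 and its receptor gene Ccr2 had an r of -0.161 (rho -0.169, adjusted permutation p of 0.764 and 0.748), and -0.179 without the 2 farthest libraries. Ccl2 and Ccl8, both of the monocyte chemoattractant cluster, had an r of 0.0866 (rho 0.168, adjusted permutation p of 0.910 and 0.748), and 0.343 without the 2 farthest. Ccl4 and Ccr1 had an r of 0.690 (rho 0.571, adjusted permutation p of 0.00562 and 0.0598), and 0.496 without control replicates 1 and 3. Ccl8 and Ccl3 were inversely related, with an r of -0.574 (rho -0.569, adjusted permutation p of 0.0487 and 0.0598), and -0.414 without the 2 farthest. In RefSeq the Ccl3 and Ccl4 genes overlap and Cxcl10 lies within Art3. The kit marks strand, but the sources do not state whether the counting used it, so reads of these overlapping genes may have been split between them. Art3 held 19.4 CPM in control replicate 2 and 30.4 CPM in 7.4/aFGF replicate 1, the 2 highest libraries for Cxcl10, within its range of 8.67 to 84.4 CPM.

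**Figure D4:**
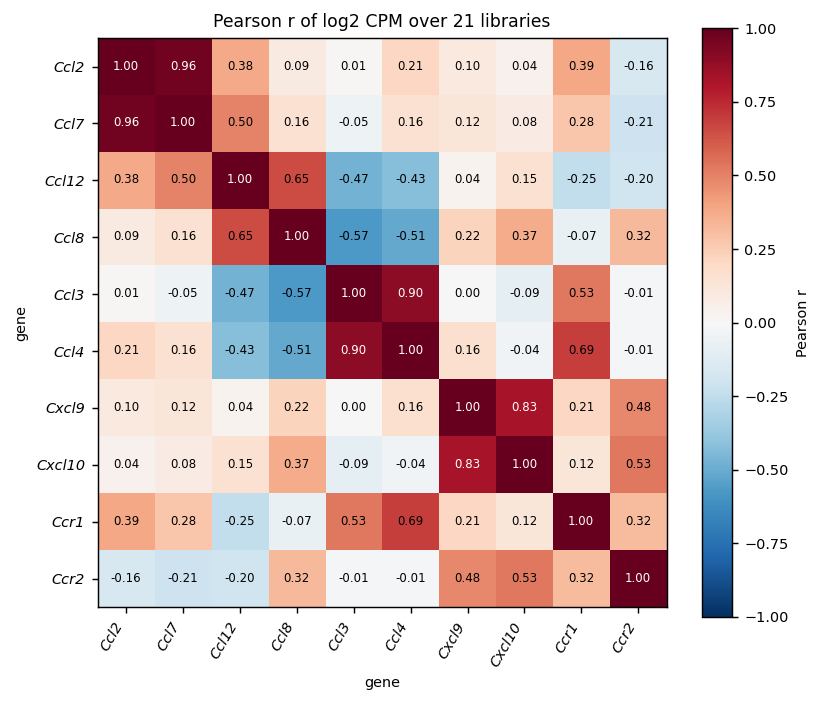
Pearson's r of log2 CPM between the 10 genes over the 21 libraries. The 3 highest values are 0.965 for Ccl2 and Ccl7, 0.897 for Ccl3 and Ccl4 and 0.826 for Cxcl9 and Cxcl10 (printed in the cells with 2 decimals).

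Several of the 10 genes were also correlated with a leukocyte marker list, and genes of 1 role did not always share a list. Over 40 relations between 4 lists and the 10 genes, the summed neutrophil markers had an r of 0.864 with Ccr1 (rho 0.761, adjusted permutation p of 0.000400 and 0.00187). Without control replicates 1 and 3 it was 0.711, and within groups 0.945. The same list had an r of 0.779 with Ccl4 (rho 0.742, adjusted permutation p of 0.000400 and 0.00187; 0.664 without those libraries). The monocyte and macrophage markers had an r of 0.765 with Ccl2 (rho 0.736, adjusted permutation p of 0.00104 and 0.00192), and 0.697 without the 2 farthest libraries. With Ccr2 their r was 0.0965 (rho 0.127, adjusted permutation p of 0.809 and 0.757), and 0.371 without the 2 farthest. The dendritic cell markers had an r of 0.741 with Ccl8 (rho 0.729, adjusted permutation p of 0.00104 and 0.00193), and 0.558 without the 2 farthest libraries.

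The T and NK cell markers had an r of 0.774 with Cxcl9 (rho 0.587, adjusted permutation p of 0.00104 and 0.0242). It was 0.436 without 7.4/aFGF replicate 1 and control replicate 2, so the relation rested largely on these 2 libraries. With Cxcl10 the r was 0.740 (rho 0.466, adjusted permutation p of 0.00300 and 0.0939), and 0.335 without them. In 7.4/aFGF replicate 3, the third library with high Cxcl9, the T and NK cell markers summed to 56.4 CPM, near the median of 56.4 CPM over the 21 libraries.

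**Figure D5:**
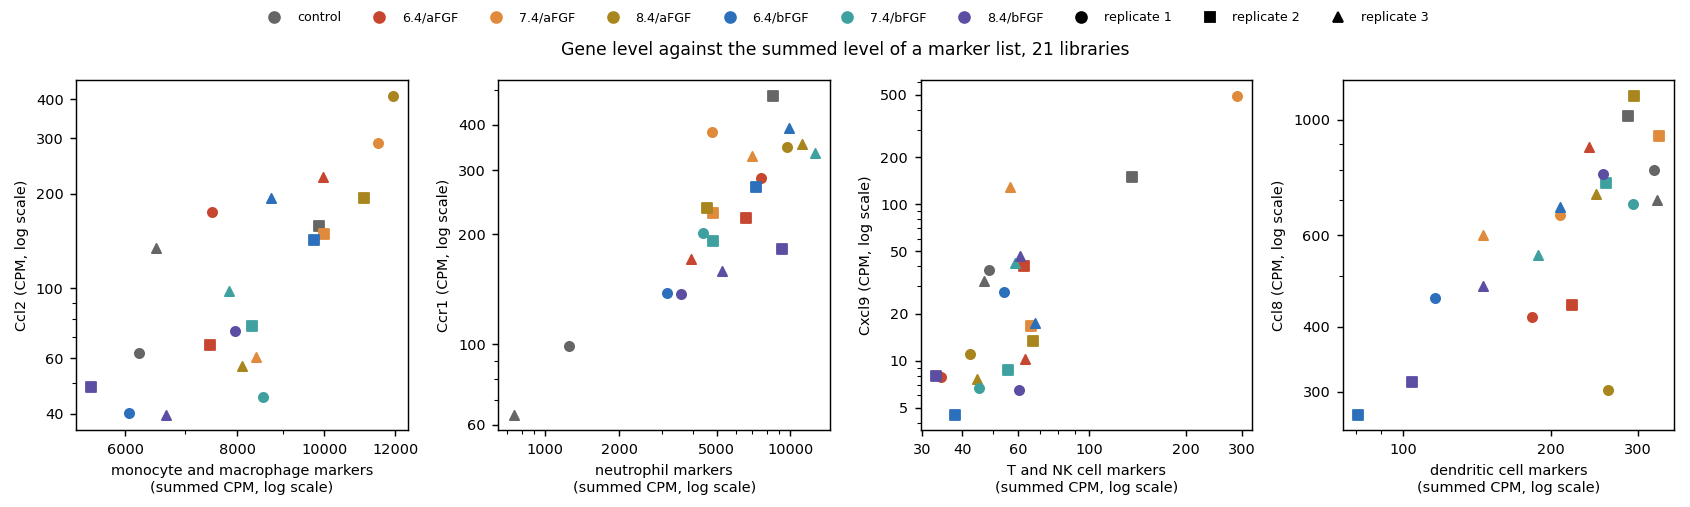
Level of a gene (vertical axis, CPM) against the summed CPM of a marker list (horizontal axis) in the 21 libraries, both on log axes, with groups by color and replicates by symbol. Ccr1 follows the neutrophil markers from control replicate 3 at 742 CPM upward, and in the Cxcl9 panel 7.4/aFGF replicate 1 and control replicate 2 lie apart at the upper right.

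The genes most like each role were read from Pearson's r with the role's mean log2 CPM over the 21 libraries, among 15801 other genes, as a description. For Cxcl9 and Cxcl10 they were Gbp4 (r = 0.969), Gbp5 (0.965) and Igtp (0.959), all interferon-inducible GTPases. For Ccl3 and Ccl4 they were the neutrophil chemokine Cxcl2 (0.913), the niacin receptor gene Hcar2 (0.910) and the hypoxia-inducible lipid droplet gene Hilpda (0.909). For Ccr1 and Ccr2 they were Pstpip1 (0.933), Klra2 (0.914), which encodes a receptor of the Ly49 family, and Bin2 (0.909). For the 4 monocyte chemoattractants they were Cnbp (0.899), Atp6v1c1 (0.895) and Hepacam2 (0.894), and Hepacam2 was low, at 0.129 to 2.13 CPM.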

How the data were processed

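Total RNA of whole wound tissue was extracted with TRIzol, and libraries were made with a stranded TruSeq mRNA kit. The authors deposited raw counts per gene and FPKM values per library, the FPKM scaled by them to gene length and library depth. The submitters' processing notes name GRCm39 as the genome build; the aligner, the counter and their versions are not given in the sources used here, nor is whether counting used strand. The 10 genes and all gene lists were chosen with earlier results of these data known. Groups and replicate numbers came from the sample titles, and all 21 libraries had both values.

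The deposited counts were tested with edgeR 4.0.16 (R 4.3.3; TMM scaling, filterByExpr by group, glmQLFit and glmQLFTest) on all genes, with Benjamini-Hochberg adjustment over the 14968 to 15811 genes that passed the filter; comparisons of a pair of groups used their 6 libraries, the interaction 12, and the other tests all 21. CPM used TMM factors over the 21 libraries, and log2 CPM a prior count of 2. SE is the absolute log2 fold change divided by the square root of F. Single genes were compared between hydrogels and control by an exact permutation test of mean log2 CPM, which 3 against 3 libraries cannot use below p = 0.1. Correlations used 100000 permutations with Benjamini-Hochberg adjustment over 45 or 40 relations. Fold changes of a gene were printed for 6.4/aFGF against 7.4/aFGF and hydrogels against control, and elsewhere where it was called or its unadjusted p was under 0.05, apart from the bFGF and interaction values of Cxcl9 and Cxcl10 and a bFGF value of Ccl4; some genes of the lists are not reported here by name. Alternatives were RLE scaling, DESeq2 1.42.0, other count filters, a fit over all libraries, a replicate block, limma 3.58.1 on log2(FPKM + 1) and log2(FPKM + 0.1) of genes with a mean FPKM of at least 1, a macrophage marker covariate, and leaving out libraries. The fits of 6.4/aFGF against 7.4/aFGF and of hydrogels against control were also run on simulated counts, the latter without DESeq2. In these counts no library stood apart over many genes, so the check does not cover libraries such as control replicate 2. Gene order and overlap came from RefSeq by symbol (18662 of the 18806 genes matched); no 2 libraries of a group were alike within sampling noise, and intervals for counting error do not cover the spread between animals.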

Additional observations from a re-analysis of the deposited data

How the results depend on the processing

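The count of called members among the 10 genes was 0 in all 10 comparisons, and it was also 0 under 186 alternatives and another count under 7. DESeq2 gave a p-value for only 8 of the 10 genes for 6.4/bFGF against 7.4/bFGF and for 9 of them for the interaction. Its counts of 0 there cover only those genes. DESeq2 called 1 for aFGF against bFGF at pH 6.4, 3 for aFGF against bFGF at pH 8.4, 1 for hydrogels against control and 2 over the 7 groups. Leaving out single libraries gave 0 to 1 for 6.4/bFGF against 7.4/bFGF (1 without 7.4/bFGF replicate 3), 0 to 1 for aFGF against bFGF at pH 8.4 (1 without 8.4/aFGF replicate 3) and 0 to 1 for hydrogels against control (1 without control replicate 2). The cause was not tested. Over all genes DESeq2 called 20, 113, 11 and 27 genes in the 4 pH comparisons, 119, 264 and 949 between growth factors at pH 6.4, 7.4 and 8.4, 28 for the interaction, 171 for hydrogels against control and 2030 over the 7 groups, where edgeR called 0 in the pH comparisons, 0, 0 and 1, 0, 1 and 18. A fit over all 21 libraries called 12 and 10 genes between growth factors at pH 7.4 and 8.4. Hydrogels against control had 5 calls with a minimum of 10 counts in every library and 5 with the macrophage covariate, and 0 to 1189 with a library left out, the highest without control replicate 2. Over the 7 groups the range with a library left out was 7 to 864, the highest again without control replicate 2. The count was 2 with the macrophage covariate and 12 with no filter. It was 3 without 7.4/aFGF replicate 3, 8.4/aFGF replicate 2 and 8.4/bFGF replicate 2. Markers of cartilage and bone were highest in the first of these, and markers of ovary and oviduct in the last. In 8.4/aFGF the liver markers summed to at most 137 CPM, against 795 CPM in control replicate 1. Leaving out 8.4/aFGF replicate 3 gave 172 calls between growth factors at pH 8.4, and leaving out 7.4/bFGF replicate 3 gave 278 for 6.4/bFGF against 7.4/bFGF.

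Fitted log2 fold changes near 0 changed sign. For 6.4/aFGF against 7.4/aFGF, Ccl7 was -0.32 without 7.4/aFGF replicate 3. In that comparison leaving out single libraries gave -0.49 to 0.58 for Ccl2, -0.52 to 0.64 for Ccl7 and -0.71 to 0.42 for Ccl12. For hydrogels against control, Ccl2 was -0.047 with the replicate block, -0.12 with limma at either pseudocount and -0.66 with the macrophage covariate. Ccl3 was -0.000803 with RLE scaling, -0.00102 with DESeq2 and -0.00382 with a minimum of 10 counts. Ccl4 was 0.092 with the block, 0.88 and 0.92 with limma at pseudocounts of 1 and 0.1 and 0.23 with the covariate. Without 7.4/aFGF replicate 3, 8.4/aFGF replicate 2 and 8.4/bFGF replicate 2 it was 0.049. Leaving out single libraries gave -0.31 to 0.25 for Ccl2, -0.33 to 0.082 for Ccl7, -0.51 to 2.60 for Ccl3, -0.52 to 2.53 for Ccl4, -0.22 to 1.59 for Ccr1 and -0.36 to 0.00485 for Ccr2, in each case with the highest value without control replicate 2.

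Replicate numbers did not pair the libraries: same-numbered libraries of different groups had correlated deviations over 0.1 in 19 of 63 pairs, and 6 of 21 libraries were closest to their own number. With the replicate block none of the 10 genes was called, and all-gene calls were 2 for hydrogels against control and 10 over the 7 groups. Depth was even between libraries. Leaving out control replicate 2 moved the fold changes of Ccl3, Ccl4, Cxcl9, Cxcl10 and Ccr1 against control by more than their standard errors.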

Other observations

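The following 3 lower-level chemokines of the lists, named after their values were seen, are given here with their values; none passed the test between control and hydrogel wounds. Ccl27a, a keratinocyte chemokine that attracts skin-homing T cells, stood at 6.12, 8.69 and 10.1 CPM in control wounds, and 17 of the 18 hydrogel libraries lay below all 3 of these values. The exception was 6.83 CPM in 6.4/aFGF replicate 3. The log2 fold change of Ccl27a for hydrogels against control was -1.25 (SE 0.30, edgeR adjusted p = 0.107). Xcl1, a chemokine of NK and T cells, stood at 1.45, 4.66 and 1.67 CPM in control, and gave -1.79 (SE 0.54, edgeR adjusted p = 0.163); 3.22 CPM in 7.4/aFGF replicate 1 was its second highest value of all libraries. Ccl17, a dendritic cell chemokine, stood at 1.27, 8.26 and 2.67 CPM in control, and gave -1.53 (SE 0.58, edgeR adjusted p = 0.212). It held 6.10 CPM in 6.4/bFGF replicate 3 and 3.04 CPM in 7.4/bFGF replicate 2, both above control replicates 1 and 3. The other hydrogel libraries lay below 2.67 CPM.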
